A study of Mus musculus with 16 samples.

Results

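The liver's response to 6 months of western diet was measured as the mean of the diet change in wild type mice and the diet change in SHP-/- mice, so that each genotype counted equally. SHP (small heterodimer partner, gene Nr0b2) is an atypical nuclear receptor that binds other transcription factors and represses them, and is best known for limiting bile acid synthesis in hepatocytes. Male mice of strain C57Bl/6Hsd (C57Bl/6 in the design text), wild type or SHP-/-, were put on chow or western diet at 4 months of age, and livers were collected at 10 months after an overnight fast. Each of the 4 groups (each genotype on each diet) had 4 mice, with 1 Illumina BeadChip array per mouse made from 1 µg of total RNA. All 16 of the 16 arrays of the series entered the comparison, 8 on western diet against 8 on chow. The labels do not give the composition of the diet or how the deletion was made, and they name no Cre or tissue restriction.

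Levels are log2 signals after background correction and quantile normalization, and changes are western minus chow on the same scale, where 1 is a 2-fold difference. A gene passed a comparison at a Benjamini-Hochberg adjusted p below 0.05 from limma over 9095 genes. A gene that passed in each genotype in the same direction was called shared. A shared gene was called alike where, in addition, the 95% interval of the difference between the 2 diet effects (the interaction, SHP-/- minus wild type) lay within 2-fold, between -1 and 1. The wild type and SHP-/- diet effects come from different mice and share no array.

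Liver senses dietary cholesterol and fat through several transcription factors. SREBP2 switches on cholesterol synthesis when sterols in the endoplasmic reticulum are low, LXR switches on sterol export and Srebf1 when oxysterols are high, and SREBP1c drives fatty acid synthesis and desaturation. PPARalpha turns on fatty acid oxidation during fasting, and PPARgamma, low in normal liver, drives fat storage genes in fatty liver.

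The arrays held 25697 probes, of which between 43.6% and 51.1% were detected per array at a detection p below 0.05. The detected share in wild type was 45.1 ± 1.25% on chow and 49.5 ± 1.05% on western diet, and in SHP-/- mice 45.4 ± 0.970% on chow and 46.0 ± 0.928% on western diet (SD, n = 4 each), so it moved with diet in wild type. The part of this in the results was not tested. All 9 tested hepatocyte markers were detected, and their mean log2 level lay between 12.8 and 13.1 in every array. The single Nr0b2 probe was detected in 0 of 16 arrays (lowest detection p 0.227), so it checks neither the deletion nor the labels. Pancreatic acinar markers (3 of 8 with a probe tested) had a mean log2 level of 6.25 to 6.85 in the wild type and SHP-/- chow and wild type western arrays, and reached 8.14 in 1 SHP-/- western array. Replicate 3 of the SHP-/- western group stood apart from its group for several sterol and lipid synthesis genes. Several results that rest on it, but not all, are given with and without it or with each array's value.

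In the average, 1498 genes rose (16.5% of those tested) and 1481 fell (16.3%). Over 2-fold, 144 rose and 35 fell. In wild type 15.5% of genes rose and 14.1% fell, while in SHP-/- mice 4.52% rose and 3.36% fell. The counts of falls depended on scaling. When arrays were aligned only by their median, the median change of all genes moved from -0.02 to 0.10, and 2071 genes rose against 330 that fell.

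The signs of the 2 diet effects matched for 6013 of the 9095 genes tested (66.1%). They matched for 2833 of the 2979 genes that passed in the average (95.1%) and were opposite for 146, but passing in the average itself favours equal signs, so this share is a description. The interaction passed for 641 genes (7.05% of those tested), 455 of which also passed in the average. Of the 2979 genes 399 were shared, and 2165 were neither shared nor passed the interaction. The 2 diet effects had a Pearson r of 0.53 and a Spearman rho of 0.47 across genes, which is a description over genes that are not independent.

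Shared changes numbered 229 rises (2.52% of genes) and 170 falls (1.87%). They were 14.8% of the genes that passed in wild type and 55.6% of those that passed in SHP-/- mice. Alike changes numbered 152 rises (1.67%) and 153 falls (1.68%). The median size of an alike change was 0.56 in the average, and the median size of its interaction was 0.11. Only 15 of the 305 alike genes exceeded 2-fold in the average, 9 up and 6 down. The diet effect was larger in wild type for 171 of them and larger in SHP-/- for 134. Aligned by the median alone, alike changes were 129 rises and 13 falls, and 104 of the 305 genes stayed alike, although 255 still passed in the average. Without replicate 2 of the SHP-/- chow group, 151 of the 305 stayed alike (80 rises and 81 falls were then alike in all), while all 305 still passed in the average.

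**Figure D1:**
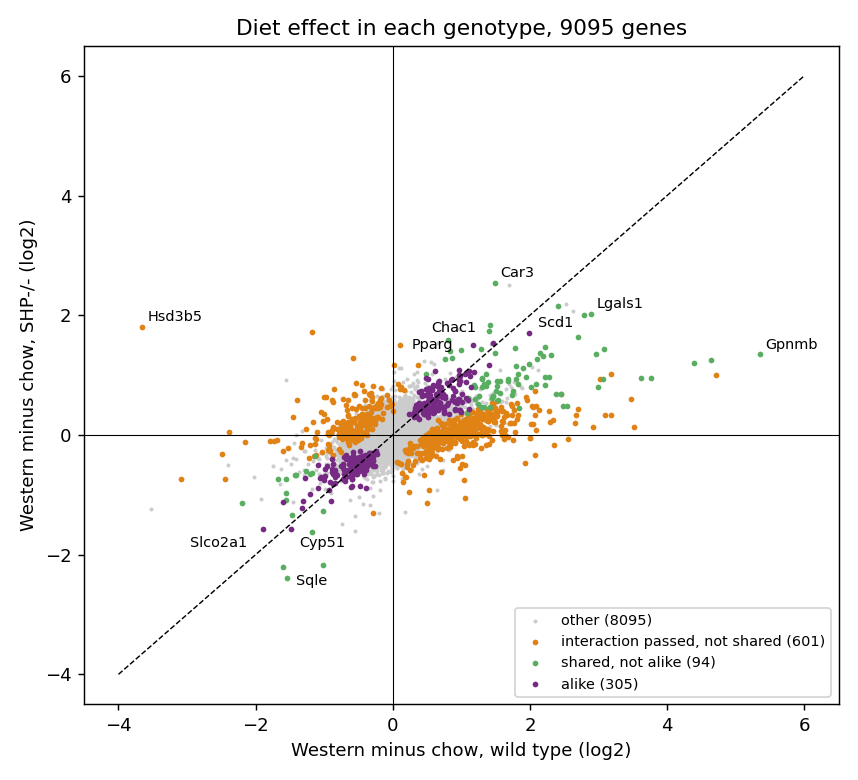
Diet effect (western minus chow, log2) in wild type on the horizontal axis and in SHP-/- mice on the vertical axis, 1 point per gene tested; the dashed line marks equal effects and colours mark the classes, with a shared gene drawn as shared or alike whether or not its interaction passed. Alike genes lie along the line, while Gpnmb, shared with an interaction that passed, and Hsd3b5, with opposite changes, lie away from it.

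The bound of 2-fold separates neighbours that differ little. Just inside it lay Fbxo31 (interaction interval 0.14 to 0.99), Tm7sf2 (-0.01 to 0.97) and Mcl1 (-0.97 to -0.39). Just outside lay Serpina12 (-1.0 to 0.78), G6pc (-0.09 to 1.0) and Dera (0.04 to 1.01). The 94 shared genes that were not alike, 77 up and 17 down, had a median interaction SE of 0.295, against 0.171 for alike genes and 0.198 for all genes. A gene had to be measured with a small error to be called alike. In 7 alike genes (Hexa, Hsd17b7, Idh2, Mcl1, Micu2, Oasl1 and Pdgfa) the interaction itself passed, with sizes of 0.47 to 0.68, so their effects differed between genotypes but by under 2-fold.

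The largest alike rise was Scd1, the stearoyl-CoA desaturase that makes oleate and is driven by SREBP1c and LXR. In wild type its chow arrays read 12.45, 12.91, 12.83 and 12.80 and its western arrays 14.84, 14.54, 14.79 and 14.76. In SHP-/- mice chow arrays read 12.64, 12.30, 12.50 and 12.98 and western arrays 14.14, 14.36, 14.56 and 14.20. All 8 western values were above all 8 chow values. The average change was 1.85 ± 0.10 (SE; 1.99 in wild type, 1.71 in SHP-/-; adjusted p = 3.32e-10, limma), with an interaction of -0.28 (95% interval -0.69 to 0.13). Scd1 was alike in 26 of 26 alternative fits, but not within a narrower bound of 1.5-fold.

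Pparg, the fat storage receptor, rose in both genotypes from different starting levels. Its wild type chow arrays read 6.98, 7.58, 7.16 and 6.72 and its western arrays 8.47, 8.08, 8.25 and 8.30. Its SHP-/- chow arrays read 5.47, 4.97, 5.09 and 5.51 and its western arrays 7.01, 7.08, 6.50 and 6.43. The SHP-/- western values overlapped those of wild type on chow, while within each genotype the diets did not overlap. The changes were 1.16 in wild type and 1.5 in SHP-/-, 1.33 ± 0.13 in the average (adjusted p = 8.21e-07, limma), with an interaction of 0.33 (95% interval -0.22 to 0.88).

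The large alike rises and falls named here are the 12 largest each way among alike genes whose diets did not overlap in either genotype. The other rises were Chac1, a glutathione-degrading enzyme and ATF4 target (1.5 in the average, 1.46 in wild type and 1.54 in SHP-/-), the dicarboxylate transporter Slc13a3 (1.28), Lyplal1, a lysophospholipase-like protein (1.12), the sulfotransferase Sult1c2 (1.09), the carboxylesterase Ces2g (1.06) and Snrpn (1.04), a component of splicing particles. Fam102a rose by 0.97 in the average. The remaining rises of the 12 were Psmb9, an immunoproteasome subunit (1.03), Ifitm3, an antiviral membrane protein (0.98), and Uba7, the activating enzyme for ISG15 (0.97), of which Psmb9 alone is on the interferon response list. Psmb9 read 7.01, 7.37, 7.66 and 7.37 on chow and 7.89, 8.74, 8.49 and 8.14 on western diet in wild type. The SHP-/- arrays read 7.38, 7.35, 7.14 and 7.15 on chow and 8.31, 8.34, 8.23 and 8.52 on western diet. The 8 western values of Psmb9 lay above the 8 chow values, and so did those of Slc13a3, Lyplal1, Sult1c2, Ces2g, Snrpn, Ifitm3 and Uba7.

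The largest alike fall was Slco2a1, the prostaglandin transporter. Its wild type chow arrays read 9.29, 9.32, 9.29 and 9.10 and its western arrays 7.42, 7.58, 7.33 and 7.07. Its SHP-/- chow arrays read 8.09, 8.47, 8.32 and 8.24 and its western arrays 6.96, 6.73, 6.42 and 6.71. The diets did not overlap, and the level was lower in SHP-/- mice on each diet. The average change was -1.74 ± 0.09 (-1.90 in wild type, -1.57 in SHP-/-; adjusted p = 2.33e-10, limma).

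The other falls of the 12 were the cholesterol synthesis enzymes Cyp51 (-1.53) and Tm7sf2 (-1.36), Igfbp2, a fasting-induced IGF carrier (-1.28), Setd4 (-1.21), Epop (-1.10), Fbxo31, an F-box protein (-1.0), the histidine-degrading enzyme Hal (-1.0), Angptl4, a lipoprotein lipase inhibitor and PPAR target (-0.88), the protease Capn10 (-0.84), Zfp771 (-0.83) and the retinol saturase Retsat (-0.82). Igfbp2 read between 11.42 and 12.32 in the 8 chow arrays and between 9.98 and 11.34 in the 8 western arrays, a gap with no overlap but with its ends near each other. Western values lay wholly outside chow values within each genotype for 300 rising genes (3.3% of those tested) and 247 falling genes (2.72%), and this held for 122 of the 152 alike rises and 114 of the 153 alike falls. Passing the test in each genotype itself favours this separation, so these counts are a description.

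**Figure D2:**
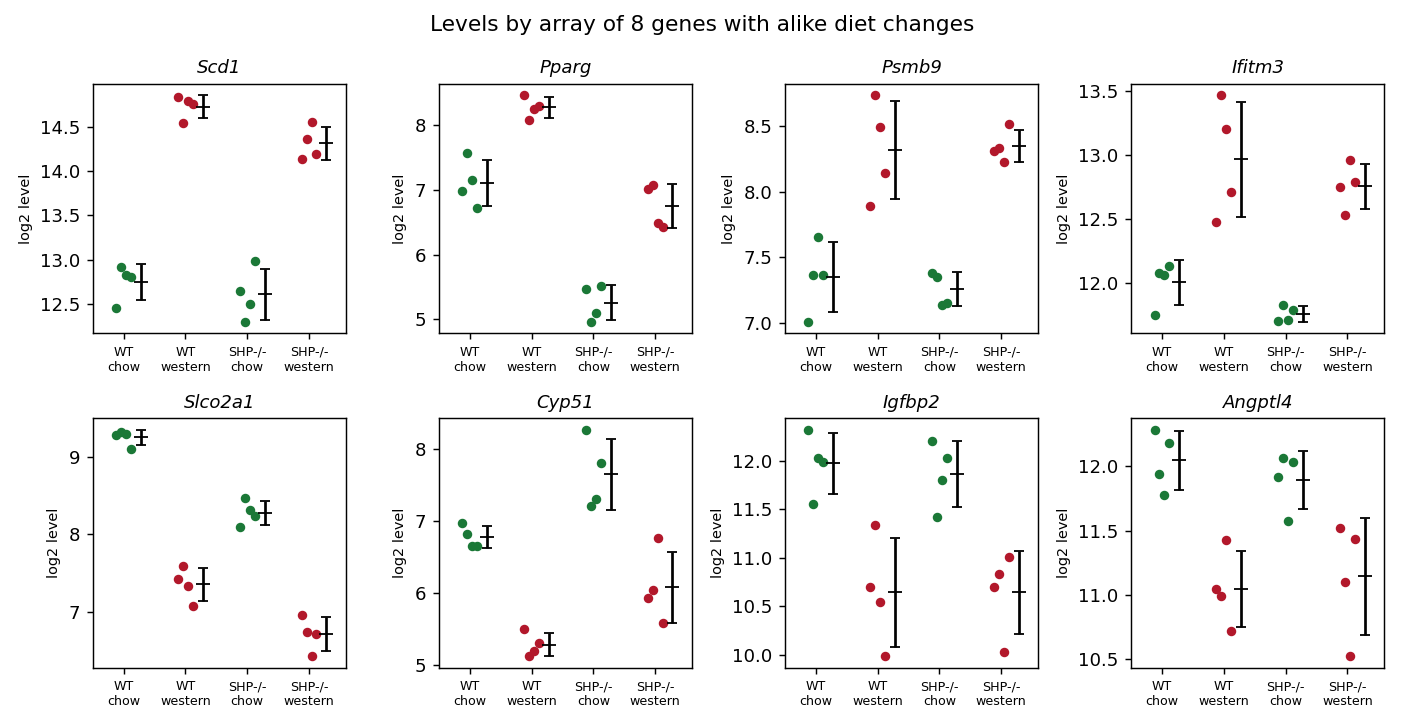
Log2 level of 8 alike genes, 1 point per array (green chow, red western), with the mean and SD of each group of 4 as a black bar beside the points. Within each genotype the red and green points do not overlap in any panel, as the genes were chosen for this. Pparg, Slco2a1 and Cyp51 also differ in level between the genotypes.

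Of 15 tested cholesterol synthesis enzymes of the 20 listed, 8 fell and 0 rose in the average, against 16.3% of all genes falling. In wild type 5 fell and in SHP-/- mice 7, with 4 shared, and 3 were alike (Cyp51, Tm7sf2 and Hsd17b7). The list's median change was -0.45 in the average, -0.44 in wild type and -0.63 in SHP-/-, against -0.02 for all genes in the average. Under median scaling 6 fell, where 330 of the 9095 genes tested fell.

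Sqle, squalene epoxidase and the second control point of the pathway, changed most: -1.97 ± 0.19 in the average, -1.55 in wild type and -2.39 in SHP-/- (adjusted p = 4.98e-07, limma). It read 6.64, 6.29, 5.83 and 5.95 on chow and 4.66, 4.73, 4.62 and 4.52 on western diet in wild type, where 2 of the 4 western arrays detected it. Its SHP-/- arrays read 8.20, 7.17, 7.59 and 7.56 on chow and 5.18, 4.98, 6.18 and 4.63 on western diet. Sqle was shared but not alike, as its interaction interval ran from -1.62 to -0.06.

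Cyp51, lanosterol demethylase, read 6.98, 6.82, 6.66 and 6.65 on chow and 5.51, 5.13, 5.20 and 5.31 on western diet in wild type. In SHP-/- mice it read 8.27, 7.21, 7.31 and 7.81 on chow and 5.93, 6.04, 6.77 and 5.58 on western diet. Chow and western values were apart in each genotype, around a higher level in SHP-/- mice. The step was -1.49 in wild type and -1.57 in SHP-/-, an interaction of -0.08 (95% interval -0.75 to 0.59).

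Tm7sf2, a sterol C14-reductase, changed by -1.60 in wild type and -1.11 in SHP-/-. Hsd17b7, a 3-ketosteroid reductase of the same pathway, changed by -1.08 and -0.50, an interaction that passed (0.58, adjusted p = 0.0191, limma). The remaining members that fell in the average were the methylsterol oxidase Msmo1 (-0.76), the isomerase Idi1 (-0.55), the decarboxylase Mvd (-0.42) and the synthase Hmgcs1 (-0.39). Each of these 4 missed the test in wild type (changes -0.76, -0.30, -0.11 and -0.16). In wild type Idi1 read 4.52 to 5.56 on chow and 4.53 to 4.70 on western diet. Mvd read 4.75 to 5.05 and 4.66 to 4.94 there. At 4.52 to 4.73, Sqle was detected in 2 of 4 wild type western arrays, so Idi1 and Mvd had little room to fall. In the average, Mvd missed the test in 15 of the alternative fits (adjusted p up to 0.0989, limma) and Hmgcs1 in 3 (up to 0.138, under median scaling). Members that missed it in the average were Fdps (-0.63), Nsdhl (-0.45), Lss (-0.42), Pmvk (-0.34), Dhcr7 (-0.25), Sc5d (-0.08) and Ebp (-0.08). Ebp changed by -0.45 in wild type and 0.30 in SHP-/-, with an interaction that passed (0.75).

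Replicate 3 of the SHP-/- western group stood apart for several genes of this list and for Stard4 of the SREBP2-linked list. Its Fdps read 10.48 against 8.35, 8.18 and 7.80 in the other 3 arrays, its Lss 7.32 against 6.03, 5.80 and 5.90, and its Stard4 8.96 against 7.26, 7.21 and 6.96. Its Msmo1 read 9.28 against 7.79, 7.85 and 7.35. Hmgcs1, in contrast, was lowest in this array, at 10.48 against 11.29, 11.16 and 10.58. Without this array, 12 of the 15 members fell in the average, with a median of -0.59. Over all genes 126 rises and 123 falls were alike without it. Of the 305 alike genes 211 then stayed alike, and all 305 still passed in the average. Srebf2, the gene of the pathway's activator, fell by 0.64 and Stard4, a sterol carrier, fell by 0.79 in the average, the 2 of 5 tested members of the SREBP2-linked list that passed, while Insig1 (-0.08), Insig2 (-0.17) and Scap (-0.30) missed the test.

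The promoters of the 3 alike enzymes and of Hmgcs1 are shown because sterol-regulated promoters are known to carry CCAAT boxes, bound by NF-Y, next to SREBP sites. Each sequence is the 250 bases before the annotated start, 5′ to 3′ on the gene's strand, from RefSeq on GRCm38.p6: Cyp51 at chr5:4104698-4104947 (minus strand), Tm7sf2 at chr19:6067851-6068100 (minus strand), Hsd17b7 at chr1:169969206-169969455 (minus strand) and Hmgcs1 at chr13:119690101-119690350 (plus strand). Capitals mark CCAAT on either strand (ATTGG when reversed) and, in Hmgcs1, TCACNCCAC, a core of the sterol response element.
Cyp51: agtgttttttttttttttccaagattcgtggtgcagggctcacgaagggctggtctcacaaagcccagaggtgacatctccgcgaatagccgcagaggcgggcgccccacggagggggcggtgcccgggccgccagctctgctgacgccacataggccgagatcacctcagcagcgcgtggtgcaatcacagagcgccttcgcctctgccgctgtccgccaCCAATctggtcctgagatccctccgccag
Tm7sf2: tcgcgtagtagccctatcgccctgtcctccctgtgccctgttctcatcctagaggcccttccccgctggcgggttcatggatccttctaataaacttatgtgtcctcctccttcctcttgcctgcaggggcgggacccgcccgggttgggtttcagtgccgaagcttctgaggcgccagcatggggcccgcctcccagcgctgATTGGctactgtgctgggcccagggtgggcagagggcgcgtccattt
Hsd17b7: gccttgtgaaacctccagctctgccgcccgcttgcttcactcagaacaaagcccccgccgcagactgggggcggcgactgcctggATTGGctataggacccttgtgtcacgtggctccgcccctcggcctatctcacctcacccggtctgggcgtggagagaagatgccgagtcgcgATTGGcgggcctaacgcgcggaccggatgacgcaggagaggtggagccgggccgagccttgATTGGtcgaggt
Hmgcs1: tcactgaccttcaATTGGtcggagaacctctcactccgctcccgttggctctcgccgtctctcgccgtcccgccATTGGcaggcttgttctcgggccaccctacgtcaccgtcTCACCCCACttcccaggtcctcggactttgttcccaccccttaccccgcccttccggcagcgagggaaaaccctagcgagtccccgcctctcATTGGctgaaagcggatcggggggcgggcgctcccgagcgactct
CCAAT lay 25 to 29 bases before the start in Cyp51 and 43 to 47 bases before it in Tm7sf2, and 3 times in each of Hsd17b7 and Hmgcs1. The Hmgcs1 sterol element lay 129 to 137 bases before the start and overlapped no marked CCAAT. Of the 15 tested enzymes 13 had a promoter in the table, and all 13 held CCAAT, including Ebp and Sc5d, which missed the test in the average. The share was 37.5% over all genes with a promoter there, and 33.8% over single promoters. TCACNCCAC was in 1 of the 13, Hmgcs1, and in 1.22% of all genes. The motifs were searched after the values were seen, on both strands, and a match is a description of letters.

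**Figure D3:**
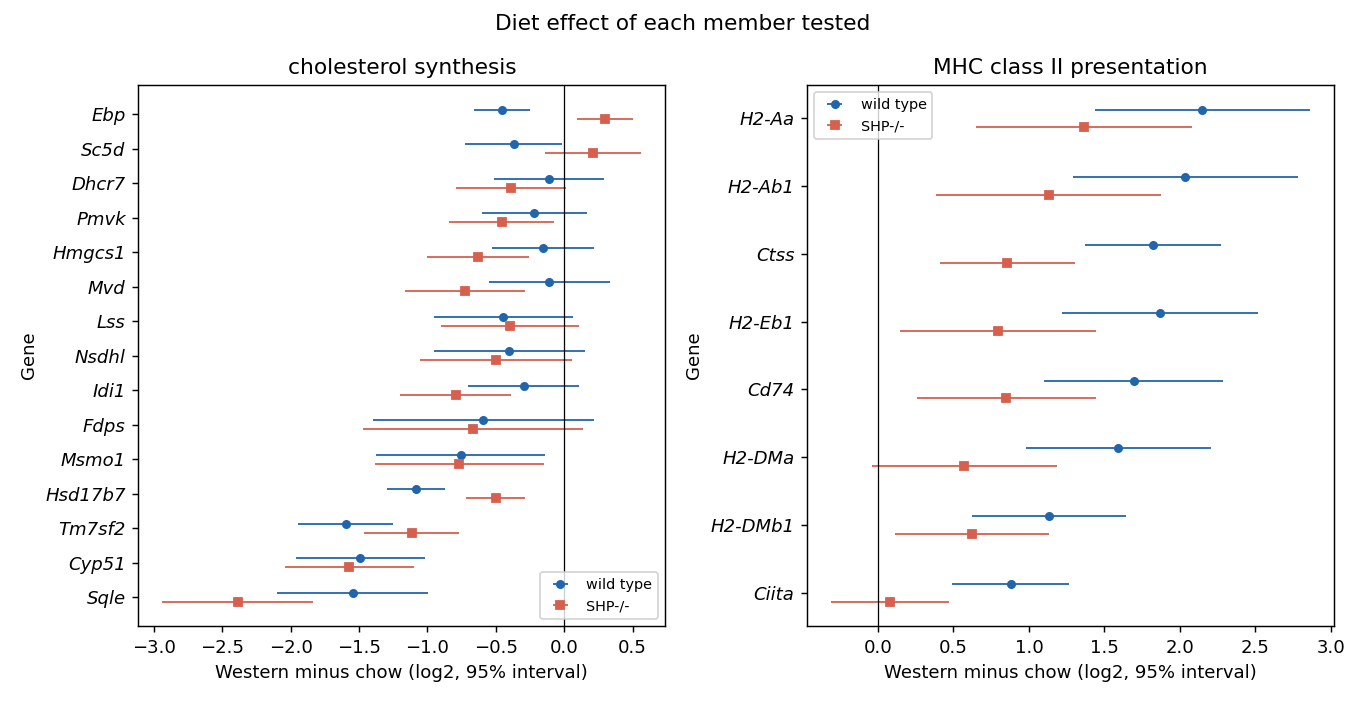
Diet effect (western minus chow, log2) with its 95% interval for each tested member of the cholesterol synthesis list (left) and the MHC class II list (right), wild type as circles and SHP-/- as squares. The intervals of Cyp51 nearly coincide, and the points of all 8 MHC class II members lie above 0 in both genotypes, further from it in wild type, with the SHP-/- intervals of H2-DMa and Ciita reaching across 0.

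Of 11 tested LXR targets and sterol export genes 8 rose and 0 fell in the average, against 16.5% of all genes rising, with none alike and a median of 0.36. Srebf1, the gene of SREBP1c, was shared. It read 5.26, 5.63, 4.93 and 5.68 on chow and 7.04, 6.97, 7.25 and 7.38 on western diet in wild type, and 5.55, 5.05, 5.88 and 5.64 on chow and 6.36, 6.55, 8.14 and 6.86 on western diet in SHP-/- mice. Its 8 western values were above its 8 chow values, with changes of 1.79 and 1.45 (1.62 ± 0.20 in the average, adjusted p = 1.07e-05, limma). Its interaction interval, -1.19 to 0.51, was too wide to call it alike.

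Abcg5, a subunit of the sterol pump that moves cholesterol into bile, rose by 1.29 in wild type and 0.47 in SHP-/-, an interaction of -0.82 that passed (adjusted p = 0.0079, limma). Its partner Abcg8 rose by 0.37 in the average (0.61 in wild type, 0.14 in SHP-/-).

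Of 23 tested genes of fatty acid and triglyceride synthesis 10 rose and 4 fell in the average, against 16.5% and 16.3% of all genes. Scd1 and the desaturase Fads2 (0.62; 0.48 in wild type, 0.76 in SHP-/-) were alike, and these were the 2 members shared. Thrsp, a lipogenic nuclear protein, rose by 2.34 ± 0.51 in the average. Its SHP-/- western arrays read 5.91, 7.22, 10.36 and 6.29, with replicate 3 again far above the rest, and its SHP-/- change alone missed the test (2.07, adjusted p = 0.0835, limma). The same array was highest of its group for the elongase Elovl6 (9.08 against 7.31 to 7.95) and for Aacs, acetoacetyl-CoA synthetase (9.50 against 7.46 to 8.01). Elovl6 rose by 1.26 and Aacs by 1.32 in the average. Elovl6 read 6.63 to 6.83 on chow and 8.26 to 8.80 on western diet in wild type, and 7.11 to 7.20 on chow in SHP-/- mice. Fasn, fatty acid synthase, was read by a probe detected in 8 of 16 arrays and showed -0.05 (adjusted p = 0.797, limma), a sign that turned (0.0456) in the authors' values. Lpin1, a phosphatidate phosphatase, fell by 1.45 and Elovl3 by 1.40 in the average, and the interaction passed for Elovl3 (2.17). Lpin1 read 8.33 to 8.95 on chow and 5.62 to 8.03 on western diet in wild type. In SHP-/- mice its diets overlapped, at 6.11 to 9.06 on chow and 6.69 to 7.97 on western diet.

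Of 17 tested lipid droplet and PPARgamma target genes 10 rose and 2 fell in the average (16.5% and 16.3% of all genes). Pparg was the 1 that was alike. The interaction passed for 4 (7.05% of all genes), among them Cidec and Cidea, which coat and fuse lipid droplets, and the lipase Lpl. Cidec rose by 3.10 in wild type, with a change of 0.34 in SHP-/-. Lpl showed 3.18 and 0.34, and its SHP-/- western arrays read 9.18, 8.97, 7.45 and 8.77, with replicate 3 lowest. Pparg itself changed alike, while the changes of these 3 genes differed between the genotypes.

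Of 21 tested PPARalpha targets and fatty acid oxidation genes 7 fell and 0 rose in the average (16.3% and 16.5% of all genes), with a median of -0.16. Under median scaling 3 fell, where 330 of the 9095 genes tested fell. Cyp4a14, a fatty acid hydroxylase whose probe may also bind close paralogs, read 14.79, 14.91, 14.79 and 14.69 on chow and 13.85, 13.48, 13.16 and 13.99 on western diet in wild type. The SHP-/- arrays read 14.64, 14.87, 14.66 and 14.74 on chow and 13.70, 13.76, 10.92 and 14.03 on western diet. All 8 western values were below all 8 chow values, and replicate 3 was again the farthest. The changes were -1.18 and -1.62 (-1.40 ± 0.31 in the average, adjusted p = 0.00191, limma). Acot1, a thioesterase, fell by 0.95, and no member of the list was alike. The carnitine carrier Slc22a5, which is not on the list, was an alike fall (-0.99). Fgf21, the fasting hormone, showed -0.20 (adjusted p = 0.572, limma), which became 0.0257 without that array.

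Of 14 tested members of the gluconeogenesis and glucose handling list 6 fell and 3 rose in the average (16.3% and 16.5% of all genes). The signs matched between genotypes for all 14 (66.1% of all genes), and the interaction passed for 0 of them in limma (1 at an unadjusted p below 0.05), against 7.05% of all genes. The interaction interval lay within 2-fold for 9 of the 14, against 85.0% of all genes, so larger differences were not excluded for 5. G6pc, glucose-6-phosphatase, read 12.81, 11.96, 12.17 and 12.68 on chow and 11.001, 10.96, 10.85 and 10.59 on western diet in wild type. Its SHP-/- arrays read 12.40, 12.15, 12.14 and 12.82 on chow and 11.21, 11.54, 10.94 and 11.44 on western diet. The diets did not overlap, and the changes were -1.55 and -1.09 (average -1.32 ± 0.13, adjusted p = 7.52e-07, limma).

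Irs2, the insulin receptor substrate that fasting induces, changed by -1.02 and -1.27, and Igfbp1, repressed by insulin, by -0.75 and -1.49. Ppargc1a, the coactivator of gluconeogenesis, was alike (-0.59 and -0.85). Pck1, PEP carboxykinase, differed more, at -1.28 in wild type and -0.28 in SHP-/- (interaction 1.01, adjusted p = 0.0662, limma). The glucose transporter Slc2a2 (0.97 and 0.86) and glycogen phosphorylase Pygl (0.59 and 0.50) were alike rises.

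Amino acid catabolism gave 9 falls and 3 rises among 23 tested genes in the average (16.3% and 16.5% of all genes). Under median scaling it gave 7 falls, where 330 of the 9095 genes tested fell. The alike members were Hal, arginase Arg1 (-0.39 in wild type, -0.59 in SHP-/-) and glutamine synthetase Glul, which rose (0.53 and 0.64). Ahcy, which clears S-adenosylhomocysteine, was also an alike fall (-0.59 and -0.74). Asns, asparagine synthetase, fell by 0.93 in the average around very different levels, 7.12 to 8.01 in wild type on chow and 10.74 to 10.94 in SHP-/- on chow, while the ATF4 target Chac1 rose in the same livers.

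Of 16 tested genes of bile acid synthesis, the process SHP is best known for, 3 rose and 5 fell in the average (16.5% and 16.3% of all genes). None was alike, against 3.35% of all genes, a share that gives under 1 gene in a list of this size. Cyp7a1, the rate-limiting enzyme, rose by 1.61 ± 0.27 in the average (adjusted p = 0.000211, limma), from a mean of 7.74 on chow in wild type and 10.4 in SHP-/-. In wild type it read 7.33, 8.41, 7.62 and 7.58 on chow and 9.32, 8.79, 10.34 and 10.97 on western diet. In SHP-/- mice it read 10.10, 9.52, 11.30 and 10.62 on chow and 11.20, 11.51, 11.48 and 11.74 on western diet. The diets overlapped only in SHP-/- mice, where the change of 1.09 missed the test (adjusted p = 0.0890, limma), and the interaction of -1.03 had an interval of -2.17 to 0.11.

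Cyp2c70, which makes muricholic acids in mice, was shared, at 1.40 in wild type and 1.74 in SHP-/- (1.57 ± 0.20 in the average). Cyp8b1, which directs synthesis to cholic acid, changed by -1.34 and -0.20, and Cyp7b1 of the alternative pathway by -2.39 and 0.04, both with an interaction that passed (adjusted p = 0.0472 and 0.00106, limma).

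MHC class II genes present antigen on macrophages, dendritic cells and B cells. The 8 tested of 10 listed rose in the average (16.5% of all genes did), with a median of 1.30 in the average, 1.76 in wild type and 0.82 in SHP-/-, and none was alike. H2-Aa read 7.76, 8.02, 8.91 and 8.04 on chow and 9.92, 11.49, 10.16 and 9.75 on western diet in wild type. The SHP-/- arrays read 6.88, 7.69, 7.34 and 8.18 on chow and 8.97, 8.52, 8.52 and 9.52 on western diet. The changes were 2.15 and 1.36 (average 1.76 ± 0.24, adjusted p = 2.67e-05, limma), and H2-Aa and the protease Ctss (1.82 and 0.86) were the 2 shared members. H2-Ab1, H2-Eb1, Cd74, H2-DMa, H2-DMb1 and Ciita rose by 1.58, 1.33, 1.27, 1.08, 0.88 and 0.48 in the average. Ciita, the class II transactivator, missed the test with the authors' values (0.30, adjusted p = 0.240, limma) and was detected in 0 of 8 SHP-/- arrays. The interaction passed for 0 of the 8 in limma, although 5 had an unadjusted p below 0.05, and its interval included a 2-fold difference for every member, so the data do not show these effects to be alike.

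Macrophage and Kupffer cell markers moved too. Of 16 tested 13 rose and 1 (Cd163) fell in the average, against 16.5% and 16.3% of all genes. Their mean log2 level in wild type was 6.73 to 7.31 on chow and 7.90 to 8.37 on western diet. In SHP-/- mice it was 6.80 to 7.23 on chow and 6.97 to 7.32 on western diet. The list's median change was 1.32 in wild type and 0.22 in SHP-/-, and the interaction passed for 8 members (7.05% of all genes). Clec4f, a Kupffer cell lectin, was the 1 alike marker (0.75 and 0.47). Of the 18 markers with a probe, Cd5l was never detected. Lymphocyte and NK cell markers had 0 rises and 0 falls among 9 tested in limma, also 0 at an unadjusted p below 0.05, and Cd4, Cd8a, Gzma, Gzmb and Ms4a1 were never detected. More cells of a type and more RNA per cell cannot be told apart in whole liver, and the part of these markers in the MHC and interferon results was not tested.

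Of 21 tested interferon response genes 16 rose and 0 fell in the average, against 16.5% and 16.3% of all genes. The list's median was 0.77 (0.97 in wild type, 0.49 in SHP-/-). Psmb9 was alike, and Ifit3 (1.80 and 1.15), Irf7 (1.33 and 0.85), Gbp3 (1.29 and 0.93) and Oasl2 (2.28 and 0.96) were shared. Ifit3, an antiviral protein, read 7.41, 7.46, 7.66 and 7.01 on chow and 8.58, 9.62, 9.52 and 9.03 on western diet in wild type. Its SHP-/- arrays read 7.39, 7.25, 6.95 and 7.53 on chow and 8.51, 8.36, 8.16 and 8.70 on western diet. All 8 western values were above the 8 chow values. MHC class I genes H2-D1 (0.82 and 0.83) and H2-Q10 (0.98 and 0.91) were alike, although their probes may bind other class I genes, and so was Mlkl, the executor of necroptosis (0.85 and 0.92).

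Promoters of H2-Aa and of Bst2, an interferon-induced membrane protein that rose by 0.65 in the average, are shown to set the sterol promoters against those of the immune groups. They are the 250 bases before the start at chr17:34287824-34288073 (minus strand) and chr8:71537473-71537722 (minus strand), with CCAAT (either strand) in capitals in H2-Aa and, in Bst2, GAAA followed after any 2 bases by a second GAAA (the paired GAAA) and TTCNNNGAA, cores of the interferon-stimulated response element and of the GAS element.
H2-Aa: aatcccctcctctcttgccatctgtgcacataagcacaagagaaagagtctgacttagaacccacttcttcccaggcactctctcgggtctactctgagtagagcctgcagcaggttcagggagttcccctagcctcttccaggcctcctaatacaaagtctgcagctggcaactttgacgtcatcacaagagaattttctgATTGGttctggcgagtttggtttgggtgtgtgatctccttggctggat
Bst2: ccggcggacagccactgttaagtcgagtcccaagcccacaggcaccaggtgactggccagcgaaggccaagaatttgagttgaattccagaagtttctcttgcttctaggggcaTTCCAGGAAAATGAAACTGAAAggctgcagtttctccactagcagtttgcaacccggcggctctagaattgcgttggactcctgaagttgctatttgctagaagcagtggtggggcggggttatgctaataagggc
The CCAAT of H2-Aa lay 44 to 48 bases before its start. In Bst2, 2 overlapping paired GAAA and a TTCNNNGAA that overlaps them spanned 115 to 136 bases before the start. The paired GAAA was in 8 of the 17 interferon genes with a promoter in the table and in 3.46% of all genes, and TTCNNNGAA in 6 of the 17 and in 8.13% of all genes. CCAAT was in 4 of the 5 MHC class II genes with a promoter there, in 6 of the 17 interferon genes and in 37.5% of all genes.

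Some of the largest changes in the average were shared without being alike. Lgals1, a galectin, changed by 2.90 and 2.03, Apoa4, an apolipoprotein that rises with liver fat, by 2.79 and 2.0, Hamp2, of the hepcidin family, by 2.41 and 2.15, and Car3, a carbonic anhydrase, by 1.49 and 2.54. Car3 was the 1 of these with a larger change in SHP-/-. The SHP-/- western arrays of Hamp2 read 7.54, 10.41, 8.15 and 7.62, with replicate 2 far above the rest. Alike changes also included the lysosomal hexosaminidase Hexa (0.58 in the average), the lipoprotein lipase cofactor Apoc2 (0.73), the collagen Col14a1 (0.77), the acute phase protein Orm1 (0.62) and the respiratory chain subunit Cox7a2 (0.57) as rises. The alike falls included fibrinogen chain Fgg (-0.47), the glutathione transferases Gstp1 (-0.87) and Gstt2 (-0.73), the sulfotransferase Sult1a1 (-0.44), the complex I subunit Ndufs7 (-0.37), the triglyceride-secretion proteins Mttp (-0.64) and Tm6sf2 (-0.68), and the hepatocyte factor Hnf4a (-0.42). Cyp1a2, an aryl hydrocarbon receptor target, was shared (-1.56 and -0.96).

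Clock genes showed wide spread within groups. Of 15 tested, 5 rose and 3 fell in the average (16.5% and 16.3% of all genes). The interaction passed for 0 in limma (1 at an unadjusted p below 0.05), against 7.05% of all genes. Its interval lay within 2-fold for 2, against 85.0% of all genes. Dbp, a clock output factor, read 7.38, 10.20, 9.17 and 7.17 on chow and 10.36, 10.32, 11.40 and 11.96 on western diet in wild type, and 7.51, 6.93, 11.01 and 6.87 on chow and 8.93, 9.72, 11.15 and 11.26 on western diet in SHP-/- mice. It rose by 2.36 ± 0.56 in the average, with 1 SHP-/- chow array among the western values. Bhlhe40 was shared (1.19 and 0.84), and Arntl (-0.74) and Per2 (0.95) passed in the average alone, where each missed the test under other settings (14 for Arntl and 5 for Per2). Collection times were not given in the labels.

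Cxcl13, a B-cell chemokine, was the 1 shared member of the 26 tested inflammatory genes, and it fell. It read 5.20, 8.67, 6.84 and 6.89 on chow and 6.54, 4.37, 4.85 and 5.43 on western diet in wild type, and 8.19, 7.50, 6.94 and 6.76 on chow and 4.68, 5.15, 5.03 and 5.68 on western diet in SHP-/- mice. The diets overlapped in wild type only, and the average change was -1.91 ± 0.38 (adjusted p = 0.00082, limma). Of the 26 inflammatory genes tested, 15 rose in the average (16.5% of all genes), and the interaction passed for 13 (7.05% of all genes).

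**Figure D4:**
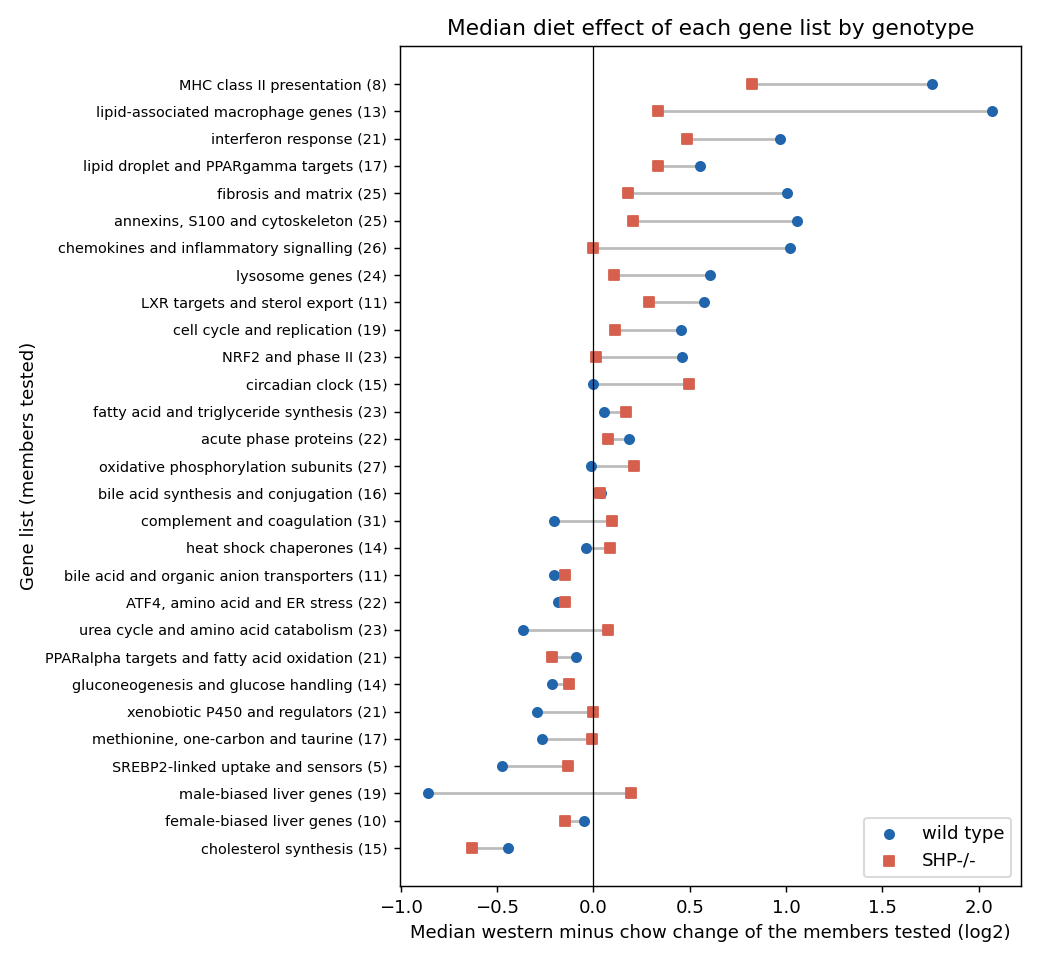
Median diet effect (western minus chow, log2) of the tested members of each pathway list, wild type as circles and SHP-/- as squares, with the number of members in brackets. Cholesterol synthesis lies lowest in SHP-/- mice, and MHC class II and interferon lists lie above 0 in both genotypes, and the wild type median lies further from 0 than the SHP-/- median for these and for the macrophage, fibrosis, annexin and chemokine lists.

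For several genes the average describes neither genotype. The largest rises in the average with an interaction were Gpnmb, a macrophage and lysosome glycoprotein (5.35 in wild type, 1.35 in SHP-/-), Ly6d (4.65 and 1.25, detected in 1 of 4 chow arrays in each genotype), Cidea and the glutathione transferase Gsta1, whose probe is open to Gsta2. Gpnmb and Cidea were each detected in 1 of 4 SHP-/- chow arrays. Gsta1 rose by 4.39 in wild type and was at least 1.75-fold higher in SHP-/- mice, where no chow array detected it, taking in each such array the higher of its own signal and the lowest signal of a detected probe. The largest such falls were Susd4 (-3.09 and -0.74), the vasopressin receptor Avpr1a (-2.45 and -0.74), Elovl3 (-2.49 and -0.32) and Cyp7b1. In SHP-/- mice Elovl3 read 8.57, 8.66, 7.81 and 8.69 on chow and 9.44, 8.38, 6.59 and 8.05 on western diet, with replicate 3 lowest. In 13 genes the diet passed in each genotype in opposite directions. Hsd3b5, a male-biased steroid reductase, was the largest of these. It read 4.26 to 5.16 in the wild type western arrays, of which 1 of 4 detected it, against 6.72 to 9.29 on chow. In the SHP-/- western arrays it read 8.83 to 11.06, against 8.16 to 9.06 on chow. Its average of -0.92 (changes of -3.65 and 1.81) is therefore no summary of either genotype. Hsd3b5 missed the test in the average in 18 of the alternative fits, which were 11 settings and 16 fits with 1 array left out. S100a11 (3.76 and 0.95) and Anxa2 (3.62 and 0.96), calcium-binding proteins, rose in each genotype with interactions of -2.81 and -2.66. Collagen Col1a1 rose by 1.81 in wild type, with a change of 0.27 in SHP-/- mice, where it was detected in 0 of 4 chow arrays and 3 of 4 western arrays.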

How the data were processed

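The authors deposited a table of non-normalized probe signals (intensity) with a detection p-value beside each, exported from BeadStudio per the file headers and the submitters' processing notes (version not given). Their processed series values are also a deposited intensity, with scaling not stated, and served as an alternative (same-array Spearman rho at least 0.999993). The number of arrays limits the precision.

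Signals were corrected and quantile-normalized with neqc of limma 3.58.1 (R 4.3.3, offset 16). Of 25697 probes, 13196 reached a detection p below 0.05 on 4 or more arrays and were kept. They were named by the platform annotation and checked against GRCm38.p6 gene tables, and the probe with the highest mean stood for each gene (9095). The linear model held 1 mean for each group over the 16 arrays (12 residual degrees of freedom, eBayes with trend). Tests were two-sided. The script was tested on simulated data.

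The members and the gene lists were chosen with earlier results of these data known. Named genes (129) were the key genes tested, the 12 largest alike changes each way among alike genes whose diets did not overlap in either genotype, up to 3 alike (otherwise 2 passing) members per list and the 4 largest changes each way with an interaction (86 in all); the other 43 were named after their values were seen. Of the alike genes, 99 had another detected probe, opposite in sign for 8. Each array is a mouse per the labels. Python 3.11.15 and matplotlib 3.10.9 drew the figures. Alternatives covered normalization, detection filter, probe choice, fit, replicate block, and each array left out.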

Additional observations from a re-analysis of the deposited data

Results flagged for a closer look

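Each of the 516 groups of 4 values (the named genes in each group) was checked for an array whose gap to its nearest neighbour exceeded Dixon's 95% critical share of the group's range, which chance gives in about 1 group in 20. This marked 36 values, and 6 of them belonged to replicate 3 of the SHP-/- western group, against at most 4 in any other array.

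Replicate 1 of the wild type chow group was lowest for C1qb (8.95, nearest 9.49) and lowest for Lpin1 (8.33, nearest 8.88). Replicate 2 of the wild type chow group was lowest for Cdkn1a (9.52, nearest 10.22) and highest for Ebp (11.19, nearest 10.82). Replicate 3 of the wild type chow group was highest for Ccl4 (6.42, nearest 4.48), highest for H2-Eb1 (9.13, nearest 8.25) and highest for Slc22a5 (9.87, nearest 9.67). Replicate 4 of the wild type chow group was highest for Abcg5 (11.09, nearest 10.66), lowest for Cidec (5.93, nearest 7.73), lowest for Slco2a1 (9.10, nearest 9.29) and lowest for Apoc2 (9.43, nearest 9.61).

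Replicate 1 of the wild type western group was highest for Hnf4a (11.33, nearest 11.12). Replicate 2 of the wild type western group was lowest for Cidec (9.76, nearest 10.57), lowest for Fbxo31 (7.56, nearest 7.97), highest for Irf7 (8.25, nearest 7.42) and lowest for Apoa4 (13.80, nearest 14.59). Replicate 3 of the wild type western group was highest for Ahsa1 (8.47, nearest 8.05), highest for Fdps (8.18, nearest 7.46) and lowest for Mvd (4.66, nearest 4.90).

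Replicate 1 of the SHP-/- chow group was highest for Ly6d (4.84, nearest 4.37). Replicate 2 of the SHP-/- chow group was highest for Cidea (5.03, nearest 4.39), lowest for Col1a1 (4.34, nearest 4.54), lowest for Lyplal1 (6.53, nearest 6.997) and highest for Cyp1a2 (11.96, nearest 10.91). Replicate 3 of the SHP-/- chow group was highest for Chac1 (6.52, nearest 5.56), highest for Dbp (11.01, nearest 7.51) and lowest for Elovl3 (7.81, nearest 8.57). Replicate 4 of the SHP-/- chow group was highest for H2-Eb1 (8.34, nearest 7.61) and highest for H2-Q10 (6.04, nearest 5.49).

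Replicate 3 of the SHP-/- western group was lowest for Cidec (6.69, nearest 7.16), highest for Ces2g (8.16, nearest 7.81), highest for Stard4 (8.96, nearest 7.26), lowest for Cyp4a14 (10.92, nearest 13.70), highest for Cyp2c70 (13.59, nearest 12.52) and highest for Lss (7.32, nearest 6.03). Replicate 4 of the SHP-/- western group was lowest for Sult1a1 (11.18, nearest 11.58).

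The diet effect differed between the genotypes by the interaction test in limma for 24 of the named genes. The difference, SHP-/- minus wild type on the log2 scale, was above 0 for Hsd3b5 (5.46), Cyp7b1 (2.44), Susd4 (2.35), Elovl3 (2.17), Avpr1a (1.72), C8b (1.68), Cyp8b1 (1.14), Ebp (0.75) and Hsd17b7 (0.58). It was below 0 for Gpnmb (-4.01), Cidea (-3.71), Ly6d (-3.39), Gsta1 (-3.20), Lpl (-2.84), S100a11 (-2.81), Cidec (-2.76), Anxa2 (-2.66), Ccl4 (-2.09), Osbpl3 (-1.64), Col1a1 (-1.54), C1qb (-1.27), Ccnd1 (-1.26), Abcg5 (-0.82) and Hexa (-0.47). Gsta1 and Col1a1 were detected in no SHP-/- chow array, so their differences rest on values at background. Gpnmb and Cidea were detected in 1 of 4 SHP-/- chow arrays, Ly6d in 1 of 4 chow arrays of each genotype. Hsd3b5 was detected in 1 of 4 wild type western arrays. The differences of these genes rest partly on values at background. Hsd17b7 and Hexa were nevertheless alike within 2-fold.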

How the results depend on the processing

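In the average, 1498 rises and 1481 falls became 1375 to 1455 and 1300 to 1397 with 1 array left out. Shared rises (229) ranged from 127 to 249 and shared falls (170) from 91 to 159, and alike rises (152) from 80 to 171 and alike falls (153) from 81 to 142. The lowest shared and alike counts were those without SHP-/- chow replicate 2. Median scaling gave 330 falls in the average, 22 shared falls and 13 alike falls. Without a detection filter 113 falls were shared, and within 1.5-fold 87 rises were alike. Without SHP-/- western replicate 2, 101 falls were alike. The other settings left these counts within 1.5 times.

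Of 3480 values of named genes under alternatives 3378 kept their direction and side of the threshold, 78 lost the call, 19 gained it and 5 turned sign: Fasn with the authors' values (0.0456) and with 1 array left out (-0.107 to 0.0092, the highest without SHP-/- western replicate 4), Fgf21 with 1 array left out (-0.321 to 0.0257, the highest without SHP-/- western replicate 3), and Sc5d (0.10) and Ebp (0.0484) under median scaling. These 4 genes missed the test in the average. The alike call was kept in 7 of 26 alternatives for Sult1a1, 12 for Hnf4a, 14 for Fbxo31 and 16 for Tm7sf2. The cause was not tested.

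The 8 same-numbered chow and western pairs had correlations of deviations from -0.14 to 0.19, with 2 over 0.1, and the other pairs from -0.22 to 0.17. Whether the numbers pair the mice was not settled by these values. With the replicate number as a block, 1476 genes rose and 1452 fell in the average, 218 and 166 were shared and 145 and 150 alike.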
